A study of Danio rerio with 12 samples.

Results

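Keratin genes were examined in RNA from whole zebrafish larvae at 120 hours post fertilization (hpf), in 6 pools of elmo2-/- larvae and 6 pools of elmo2+/+ larvae. The members were all genes whose zebrafish symbol begins with krt followed by a digit or by t1, other than the unrelated krtcap genes. This rule found 20 keratin genes among the 32520 genes listed, and all 20 were expressed highly enough to be tested. Each pool held 30 larvae. The elmo2-/- line carries a frameshift deletion in elmo2, made with CRISPR/Cas9, which leads to an early stop codon. Both genotypes carry the transgene Tg(fli1:EGFP), which marks endothelial cells with EGFP. Elmo2 is an adaptor protein that acts with Dock proteins on the small GTPase Rac and thereby on the actin cytoskeleton. The comparison asks whether larvae without functional Elmo2 differed from larvae with it in the RNA of the keratin filament system.

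Keratins form the intermediate filaments of epithelial cells. A filament is built from pairs of a type I (acidic) and a type II (basic) keratin, and desmosomes and hemidesmosomes tie the filaments to neighbouring cells and to the basement membrane. The skin of a zebrafish larva has a superficial layer, the periderm, over a layer of basal keratinocytes, and keratins are major products of both. Among the genes examined, krt4, krt5 and krt8 encode type II keratins, whereas krt15, krt17, krt1-19d, krt1-19e and the 3 krt18 copies encode type I keratins. No type is assigned here to krt91 to krt95, krt97 to krt99, krt1-c5 or KRT222.

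The 12 libraries were of nearly equal depth, at 20116203 to 20560518 estimated counts in elmo2-/- and 20245232 to 20939679 in elmo2+/+. The targeted gene, elmo2, was lower in every elmo2-/- pool than in any elmo2+/+ pool, at 31.4 to 51.6 CPM (counts scaled to an equal total per library) against 56.3 to 92.4 CPM. Its log2 fold change was -0.93 (SE 0.15), with an exact two-sided permutation p of 0.00216, the smallest that 6 pools against 6 allow, and an adjusted p of 0.642 in edgeR over all genes. Each library has a number of its own in the labels, which do not say whether any libraries were prepared together. The numbers were 1 to 6 in elmo2+/+, and 13 to 16 (replicates 1 to 4), 7 and 8 (replicates 5 and 6) in elmo2-/-. Any difference between numbers 1 to 6 and the other numbers cannot be told apart from genotype. Numbers 13 to 16 and numbers 7 and 8 are all elmo2-/-, so a difference between them lies within that genotype.

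Keratin RNA made up a similar share of the larval transcriptome in both genotypes. Levels were measured in TPM, which corrects for transcript length and has an equal sum in all pools. The 20 genes together accounted for 1.27% ± 0.0576 of summed TPM in elmo2-/- and for 1.27% ± 0.135 in elmo2+/+ (mean ± SD of 6 pools per genotype). The lowest and highest shares were 1.20% and 1.34% in elmo2-/-, against 1.11% and 1.43% in elmo2+/+, so the elmo2-/- pools lay inside the range of the elmo2+/+ pools. As a percentage of estimated counts the shares were 1.99% ± 0.0684 in elmo2-/- and 1.95% ± 0.248 in elmo2+/+. Because whole larvae were sequenced, fewer cells of an epithelium and less keratin RNA per cell cannot be told apart in any of these values.

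The mean levels of single genes ran from 4702 TPM for krt4 to 0.66 TPM for krt98. krt4, a type II keratin whose promoter is widely used to drive transgenes in the skin of zebrafish, was the most abundant, with a mean of 4702 TPM over the 12 pools, rank 17 among all genes. It reached 4176, 4798 and 5204 TPM (lowest, median and highest pool) in elmo2-/- and 3341, 4848 and 5665 TPM in elmo2+/+. krt4 alone gave 33.9% to 40.4% of keratin TPM in elmo2-/- and 30.0% to 40.3% in elmo2+/+. Keratin TPM, here and below, means the summed TPM of the 20 genes and leaves out cyt1 and cyt1l, which are described below.

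Below krt4 lay krt91 (mean 2170.4 TPM), krt1-19e (1896 TPM) and krt5 (1746 TPM). krt1-19e is also listed as krtt1c19e, the gene whose promoter is used to mark basal keratinocytes, and krt5 is named after the type II keratin of basal keratinocytes in mammals. With krt17 (581 TPM), named after a type I keratin that mammalian skin appendages and wounded epidermis express, these 5 genes held 84.3% to 89.0% of keratin TPM in elmo2-/- and 84.4% to 89.0% in elmo2+/+. krt91 exceeded krt1-19e in 12 of 12 pools, krt1-19e exceeded krt5 in 10 of 12, and krt5 exceeded krt17 in 12 of 12.

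A middle group held krt92 (423 TPM), krt8 (358 TPM), krt97 (306 TPM), krt15 (174 TPM), krt1-19d (136 TPM), krt18a.1 (95.3 TPM) and krt18b (67.8 TPM). The order within it was less fixed for krt8 and krt97, where krt8 was the higher in 9 of 12 pools. The remaining genes were krt94 (23.9 TPM), KRT222 (14.1 TPM), krt18a.2 (9.05 TPM), krt93 (6.10 TPM), krt1-c5 (5.64 TPM), krt99 (2.97 TPM), krt95 (1.15 TPM) and krt98 (0.66 TPM). krt95 exceeded krt98 in 9 of 12 pools, and krt93 exceeded krt1-c5 in 7 of 12, so that the order of krt93 and krt1-c5 lay within their spread.

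**Figure D1:**
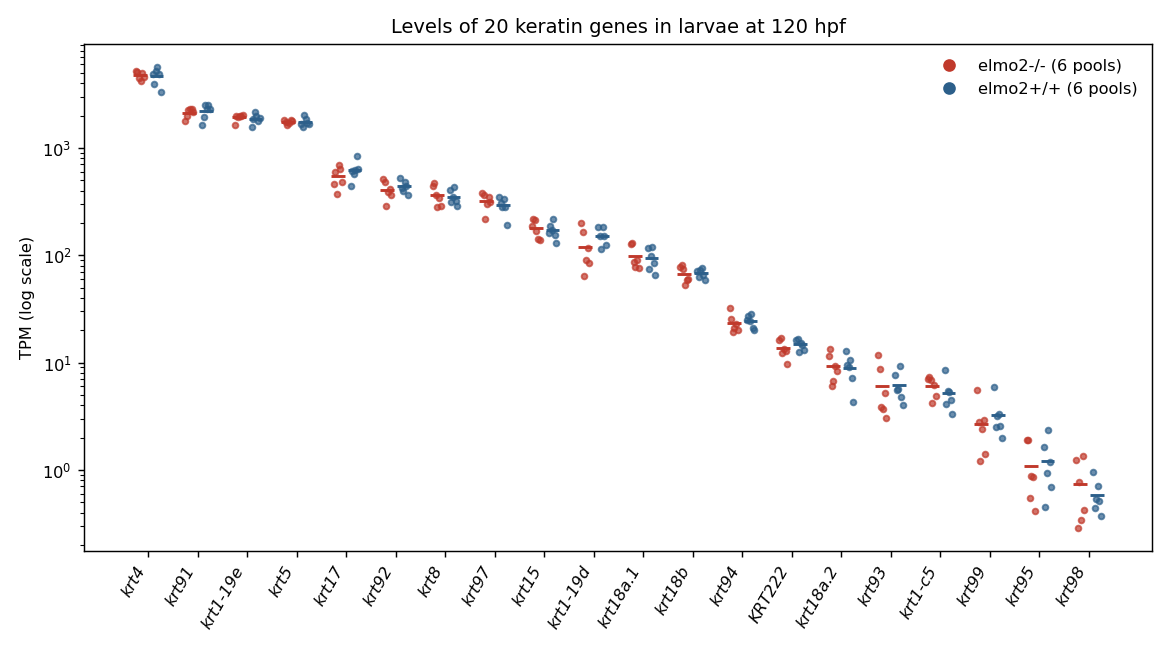
Level of each of the 20 keratin genes in TPM (log scale) in the 6 elmo2-/- pools (red, left of each pair) and the 6 elmo2+/+ pools (blue, right), with genes ordered by mean TPM, points for pools and bars for the mean. The genes run from krt4 at a mean of 4702 TPM to krt98 at 0.66 TPM, and the points of the genotypes overlap for all 20 genes.

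Keratin 8 and keratin 18 are the standard filament partners of simple epithelia, and the genes examined include 1 krt8 gene and 3 krt18 genes. The name krt8 is also listed as a synonym of krt4, which does not enter the ratio of krt8 to the krt18 genes. krt8 reached 282, 352 and 466 TPM (lowest, median and highest pool) in elmo2-/- and 287, 336 and 430.3 TPM in elmo2+/+. The summed level of krt18a.1, krt18a.2 and krt18b was 137, 162 and 225 TPM in elmo2-/- and 128, 169 and 208 TPM in elmo2+/+. The ratio of krt8 to the summed krt18 genes varied less than either level, by 1.15-fold over all pools where krt8 varied by 1.65-fold and the summed krt18 genes by 1.75-fold. The ratio was 1.98 to 2.19 (mean 2.09 ± 0.0760, SD) in elmo2-/- and 1.94 to 2.24 (mean 2.08 ± 0.103) in elmo2+/+. Among the 3 copies, krt18a.1 exceeded krt18b in every pool, by 1.16-fold to 1.63-fold in elmo2-/- and 1.09-fold to 1.65-fold in elmo2+/+, whereas krt18a.2 stayed at 6.04 to 13.4 TPM in elmo2-/- and 4.28 to 12.7 TPM in elmo2+/+. The type II genes krt4, krt5 and krt8 together gave 50.1% to 57.8% of keratin TPM in elmo2-/- and 47.5% to 57.5% in elmo2+/+.

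Most keratin genes are neighbours in the genome. In the RefSeq gene order of assembly GRCz12tu, which was used for names and neighbours only, 18 of the 20 genes fall into 5 runs, and krt95 and krt1-c5 stand apart. The run that begins with krt1-19d and krt1-19e and continues over krt92 to krt17 and krt91 gave 35.5% to 44.6% of keratin TPM in elmo2-/- and 36.1% to 48.1% in elmo2+/+. A second run places the type II genes krt5 and krt8 directly beside krt18a.1 and krt18a.2, and gave 16.8% to 18.6% of keratin TPM in elmo2-/- and 16.04% to 18.2% in elmo2+/+. krt93, krt94, krt98, krt15 and krt99 form another run, which gave 1.31% to 1.98% in elmo2-/- and 1.37% to 1.95% in elmo2+/+. The neighbours KRT222 (krt222 in RefSeq) and krt97, and krt4 and krt18b with 1 gene between them, make up the others. In RefSeq krt97 is followed by krt96, which is not among the 20 genes examined.

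The first of these runs also contains cyt1 and cyt1l, named after type I cytokeratins, whose symbols fall outside the rule. cyt1 reached 1376, 1698 and 2499.9 TPM (lowest, median and highest pool) in elmo2-/- and 1238, 2249 and 2864 TPM in elmo2+/+, near the levels of krt1-19e and krt5. cyt1l reached 773, 929 and 1387 TPM in elmo2-/- and 627, 1138 and 1384 TPM in elmo2+/+. Neither gene is counted in the keratin shares or in the order of levels. The log2 fold change was -0.19 for cyt1 and 0.01 for cyt1l, with unadjusted p of 0.407 and 0.954 in edgeR.

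No keratin gene passed the test for a difference between the genotypes. By the quasi-likelihood test of edgeR, with p-values adjusted over all genes by the Benjamini-Hochberg method, 0 of 20 keratin genes had an adjusted p under 0.05, where 0.0% of the 22259 genes tested had one. DESeq2 called 3 genes and limma called 1 gene over the whole table, and neither called a keratin gene. At an unadjusted p under 0.05, edgeR found 0 of 20 keratin genes, where 4.68% of all genes tested passed, 2.55% higher and 2.13% lower in elmo2-/-. The CPM values of the genotypes overlapped for all 20 keratin genes, where 0.198% of all genes tested had no overlap.

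The fold changes were small and had no common direction. Of the keratin genes, 11 had a log2 fold change above 0 and 9 one below 0, against 11083 and 11176 of all genes tested. The median log2 fold change was 0.026 for the keratin genes and -0.0006 for all genes tested. The 95% interval of the log2 fold change included 0 for all 20 genes, lay within -1 and 1 for 18 of them and within -0.5 and 0.5 for 12. Among the 4 most abundant genes the interval was -0.20 to 0.34 for krt4, -0.32 to 0.30 for krt91, -0.17 to 0.34 for krt1-19e and -0.16 to 0.23 for krt5. The exceptions to the wider limits were krt95, with an interval of -1.09 to 0.73, and krt98, with -0.47 to 1.13, the genes with the fewest counts.

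**Figure D2:**
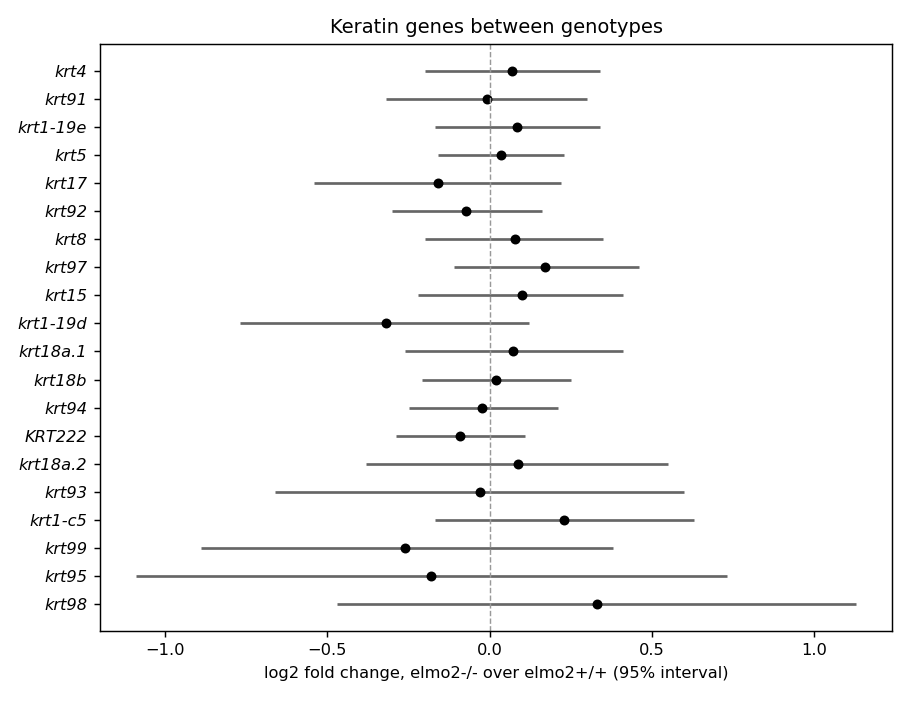
Log2 fold change of each keratin gene, elmo2-/- over elmo2+/+, from the fit over all genes (points) with its 95% interval (lines), ordered by mean TPM from the top. Every interval includes 0, and the points lie between -0.32 for krt1-19d and 0.33 for krt98.

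The smallest unadjusted p among the keratin genes belonged to krt1-19d, a type I keratin gene that lies beside krt1-19e. It reached 69.0, 106 and 179 CPM (lowest, median and highest pool) in elmo2-/- and 113, 145 and 195 CPM in elmo2+/+. In elmo2-/-, replicates 3, 4 and 6 lay below every elmo2+/+ pool, whereas replicates 1 and 2 lay among the highest of all 12. The log2 fold change was -0.32 (SE 0.21, 95% interval -0.77 to 0.12), with an unadjusted p of 0.143 and an adjusted p of 0.9997 in edgeR and an exact permutation p of 0.139. Without elmo2-/- replicate 1 the log2 fold change was -0.48, with an unadjusted p of 0.0247 and an adjusted p of 0.655 in edgeR, where 7.25% of all genes tested had an unadjusted p under 0.05. Without elmo2-/- replicate 3, its lowest pool, the log2 fold change was -0.21, with an unadjusted p of 0.285 and an adjusted p of 0.9999 in edgeR. The neighbouring krt1-19e, which was 13.98 times as abundant in TPM, had a log2 fold change of 0.084 (SE 0.12).

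krt97 was the next by unadjusted p. It reached 263, 373 and 389 CPM (lowest, median and highest pool) in elmo2-/- and 213, 316 and 399 CPM in elmo2+/+, with a log2 fold change of 0.17 (SE 0.13, unadjusted p of 0.208 in edgeR). In elmo2-/-, 5 pools lay between 358 and 389 CPM, and replicate 3 was lower than these. The log2 fold change of krt97 was 0.083 without elmo2+/+ replicate 6, its lowest pool, and 0.25 without elmo2-/- replicate 3 or without elmo2+/+ replicate 4. krt1-c5 was measured at 4.86, 6.43 and 7.79 CPM in elmo2-/- and 3.62, 5.39 and 8.25 CPM in elmo2+/+, with a log2 fold change of 0.23 (SE 0.18). Without elmo2+/+ replicate 1, which was its highest pool, the log2 fold change of krt1-c5 was 0.38, with an unadjusted p of 0.0369 and an adjusted p of 0.998 in edgeR, where 4.63% of all genes tested had an unadjusted p under 0.05. Without elmo2+/+ replicate 6, its lowest pool, it was 0.13, with an unadjusted p of 0.452 and an adjusted p of 0.995 in edgeR.

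The further genes with the smallest p or the largest fold change had standard errors close to or above the size of the change. The log2 fold change was -0.093 (SE 0.093) for KRT222, named after a keratin-like gene in human, and -0.16 (SE 0.18) for krt17. krt99 had one of -0.26 (SE 0.30), at 1.74 to 6.26 CPM in elmo2-/- and 2.64 to 6.51 CPM in elmo2+/+. Leaving out elmo2-/- replicate 1 gave krt99 -0.52, and leaving out elmo2+/+ replicate 1 gave it -0.073. krt98 had the highest log2 fold change, 0.33 (SE 0.37), at 0.289 to 1.14 CPM in elmo2-/- and 0.344 to 0.805 CPM in elmo2+/+, and lay between 0.094 (without elmo2-/- replicate 1) and 0.48 (without elmo2-/- replicate 2 or elmo2+/+ replicate 4). krt17 lay between -0.27 (without elmo2-/- replicate 4) and -0.053 (without elmo2+/+ replicate 5). Among the middle genes, krt15, in mammals a keratin of basal cells, had a log2 fold change of 0.099 (SE 0.15), krt92 of -0.072 (SE 0.11) and krt8 of 0.077 (SE 0.13).

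The genes that work with keratin filaments were counted in the same fit, from lists of symbols. Of 18 listed symbols of desmosome and linker genes, 10 were matched and tested, with 9 higher and 1 lower in elmo2-/- and a median log2 fold change of 0.16. pleca, which encodes plectin, a linker between intermediate filaments and cell junctions, was the only member with an unadjusted p under 0.05, at a log2 fold change of 0.12 (SE 0.057, unadjusted p of 0.0459, adjusted p of 0.9997 in edgeR). Of 9 genes of hemidesmosomes and basement membrane anchorage, 4 were higher and 5 lower, with 0 at an unadjusted p under 0.05 in edgeR. The periderm list, which held no keratins, had 6 of 8 genes higher, among them anxa1c, an annexin of the superficial layer, at a log2 fold change of 0.41 (SE 0.13, unadjusted p of 0.00843, adjusted p of 0.9997 in edgeR), and icn2 at 0.21 (SE 0.092, unadjusted p of 0.0409 in edgeR). Its summed level was 695 to 1340.3 TPM in elmo2-/- and 591 to 1285 TPM in elmo2+/+. Of 6 basal keratinocyte genes, 5 were higher, and of 9 epidermal transcription factor genes, 7 were higher, with 0 in either list at an unadjusted p under 0.05 in edgeR. Of all genes tested, 11083 were higher and 11176 lower, and 2.55% were higher at an unadjusted p under 0.05 in edgeR. Some genes, such as ITGB4, are in more than 1 of these lists, so their counts are not independent. The part of these skin markers in the keratin values was not tested.

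Among 16 other intermediate filament genes, 6 were higher and 10 lower, with a median log2 fold change of -0.025. nes, which encodes nestin, a filament protein of neural progenitors and developing muscle, had a log2 fold change of 0.36 (SE 0.12, unadjusted p of 0.0118 in edgeR). BFSP2, which encodes a beaded filament protein of the lens, had one of -0.35 (SE 0.16, unadjusted p of 0.0433 in edgeR). No gene of any of these lists had an adjusted p under 0.05 in edgeR.

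The keratin genes varied between pools, and most for some of the genes at low level. Over all 12 pools, the highest exceeded the lowest by 1.36-fold in CPM for krt5, by 1.81-fold for krt4 and by 5.60-fold for krt95. Among genes with a mean of at least 1 CPM, the SD of log2 CPM over the 12 pools was greatest for krt95 (0.742), krt99 (0.565), krt93 (0.541) and krt1-19d (0.444). krt95 was measured at 0.467 to 2.07 CPM in elmo2-/- and 0.478 to 2.62 CPM in elmo2+/+, on a mean of 24.0 estimated counts per pool. The highest value of a keratin gene lay in elmo2+/+ replicate 4 for 10 of 20 genes, and the lowest in elmo2+/+ replicate 6 for 8 of 20.

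To describe this variation without using the 20 keratin genes themselves, each gene's log2 CPM was set against a first principal component. It was that of all other tested genes, cyt1 and cyt1l among them, and held 36.6% of their variance. The component was lowest in elmo2-/- replicate 1 (-1.56 SD) and elmo2+/+ replicates 1 (-1.27) and 4 (-1.11), and highest in elmo2-/- replicate 6 (1.33) and elmo2+/+ replicate 6 (1.48). Pools of both genotypes therefore lay at both ends. Of the keratin genes, 16 had a negative and 4 a positive correlation with it, and for all 20 the sign was the same within the elmo2-/- pools as within the elmo2+/+ pools. Some of these signs rest on values near 0. For krt4, r was -0.01 within elmo2-/- and -0.54 within elmo2+/+, and for krt5 it was 0.95 and 0.02. The share of all genes with the same sign in both genotypes is not given here. Over all genes tested, 49.7% of correlations were negative.

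The 4 positive genes, krt91, krt1-19e, krt17 and krt5, were the 4 most abundant of the 20 genes after krt4. Their r over all pools was 0.68, 0.58, 0.45 and 0.28. Leaving out elmo2-/- replicate 1 and elmo2+/+ replicate 1 gave 0.31, 0.01, 0.03 and -0.12, so the positive signs rest largely on those pools. The estimated counts of all 4 were not whole in every pool, as for 11 of the 20 keratin genes (described below). With permutation p-values from 100000 resamples, adjusted over all 22259 genes, 8 of 20 keratin genes had a negative correlation with an adjusted p under 0.05, where 17.1% of all genes tested did, and 1 had a positive one, where 15.8% did. Together these were 9 of 20, where 33.0% of all genes tested passed. By Spearman's rho 8 keratin genes passed, but the share of all genes passing by rho is not given here, so this count stands without a comparison. After leaving out elmo2-/- replicate 1 and elmo2+/+ replicate 1, the pools farthest from the median of the component, 4 of 20 did (krt93, krt94, krt8 and krt18a.2), where 15.5% of all genes tested passed without these pools.

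krt93, at low level and with the closest relation, was measured at 3.94, 5.70 and 12.6 CPM (lowest, median and highest pool) in elmo2-/- and 4.84, 6.57 and 12.1 CPM in elmo2+/+. Its highest pools were elmo2-/- replicate 1 and elmo2+/+ replicate 4, both at the low end of the component. Pearson's r was -0.92 (permutation p of 5e-05, adjusted 0.00103) and rho was -0.91 (permutation p of 0.0001, adjusted 0.00237), with r of -0.98 within elmo2-/-, -0.89 within elmo2+/+ and -0.92 without the 2 farthest pools.

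krt8 and krt18a.1, which are among the simple epithelial partners, went the same way. For krt8, r was -0.76 (permutation p of 0.00509, adjusted 0.0207) and rho was -0.71 (permutation p of 0.0130, adjusted 0.0468), with r of -0.78 within elmo2-/-, -0.76 within elmo2+/+ and -0.83 without the 2 farthest pools. For krt18a.1, r was -0.79 (permutation p of 0.00265, adjusted 0.0128) and rho was -0.75 (permutation p of 0.00700, adjusted 0.0302), with r of -0.84 within elmo2-/-, -0.78 within elmo2+/+ and -0.78 without the 2 farthest pools, where its adjusted p was 0.0545. Correlations of krt94, krt18a.2, krt99, krt95 and krt92 lay between -0.79 and -0.67 and also passed, although krt95 did not by rho (adjusted 0.0717). The remaining krt18 copy, krt18b, did not pass. Its r was -0.44 (permutation p of 0.155, adjusted 0.27) and its rho was -0.29 (permutation p of 0.353, adjusted 0.504). On log2(TPM + 1) krt18b had r of -0.71, with an adjusted permutation p of 0.0446.

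krt91 was the keratin that passed in the other direction by Pearson's r of log2 CPM. On log2(TPM + 1) its r was 0.66, with an adjusted permutation p of 0.0629. Its lowest pools were replicate 1 of elmo2-/- (1864 CPM) and replicate 1 of elmo2+/+ (1737 CPM), against highest values of 2907 CPM in elmo2-/- and 2943 CPM in elmo2+/+. Pearson's r was 0.68 (permutation p of 0.0157, adjusted 0.0482) and rho was 0.52 (permutation p of 0.0844, adjusted 0.179), with r of 0.87 within elmo2-/- and 0.53 within elmo2+/+. Without the 2 farthest pools r was 0.31 (adjusted permutation p of 0.58), so the relation rests on those pools. The same held for krt1-19e, with r of 0.58 over all pools (permutation p of 0.0492, adjusted 0.114; rho 0.49, permutation p of 0.111, adjusted 0.218) and 0.01 without them. The ratio of krt91 to krt8 in TPM accordingly lay between 3.99 (replicate 1) and 8.22 (replicate 4) in elmo2-/- and between 4.07 (replicate 1) and 8.05 (replicate 6) in elmo2+/+.

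**Figure D3:**
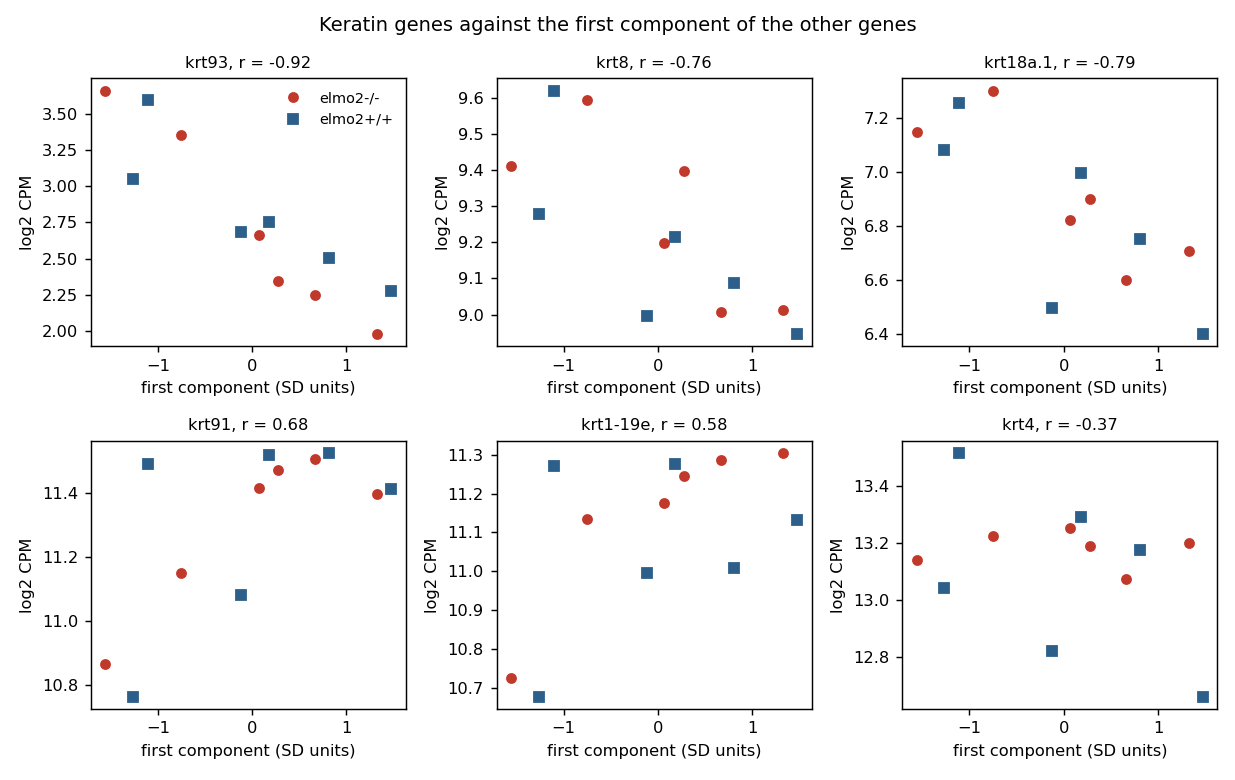
Log2 CPM of 6 keratin genes in each pool against the first principal component of all other tested genes (SD units), with red circles for elmo2-/- and blue squares for elmo2+/+. krt93, krt8 and krt18a.1 fall along the component with r of -0.92, -0.76 and -0.79, krt91 and krt1-19e lie lowest in the replicate 1 pools at the left end, and krt4 shows r of -0.37.

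By neighbouring run, the correlations had 1 sign in 3 of the 5 runs. All 5 genes from krt93 to krt99 were negative, as were krt4 and krt18b, and KRT222 and krt97. In the run from krt1-19d to krt91 krt1-19d and krt92 were negative and krt1-19e, krt17 and krt91 positive. In the krt5 to krt18a.2 run, krt5 was positive (r of 0.28) and the other 3 were negative. The sign for krt5 was negative on the log2(TPM + 1) scale (r of -0.16) and without the 2 farthest pools (r of -0.12).

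Correlations of other values with the component are given here without a test, and their part in the keratin values was not tested. The r of the TMM scaling factor with it was -0.56 and that of the library total was -0.44, across 12 pools that share these libraries. All 10 desmosome and linker genes, all 9 epidermal transcription factor genes, all 8 periderm genes, all 6 basal keratinocyte genes, all 6 ionocyte genes and all 4 hepatocyte genes had a negative correlation, with median r of -0.82, -0.82, -0.82, -0.70, -0.92 and -0.95, and the 3 neuronal genes had a positive one, with a median of 0.90. All 3 enterocyte genes and the mucous cell gene were also negative (median r of -0.55 and -0.82). The 3 skeletal muscle, 3 lens and 1 notochord genes were positive, with median r of 0.63, 0.27 and 0.67. Hemidesmosome genes were mixed, 7 negative and 2 positive (median -0.48), as were other intermediate filament genes, 11 and 5 (median -0.28). Some genes, such as ITGB4, are in more than 1 list. Of all genes tested, 49.7% had a negative correlation. The median over the 20 keratin genes was -0.62. The summed level of the hepatocyte genes was 1450.4 to 3981 TPM in elmo2-/- and 1571 to 3879 TPM in elmo2+/+, and that of the neuronal genes was 289 to 363 TPM in elmo2-/- and 295 to 426 TPM in elmo2+/+.

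**Figure D4:**
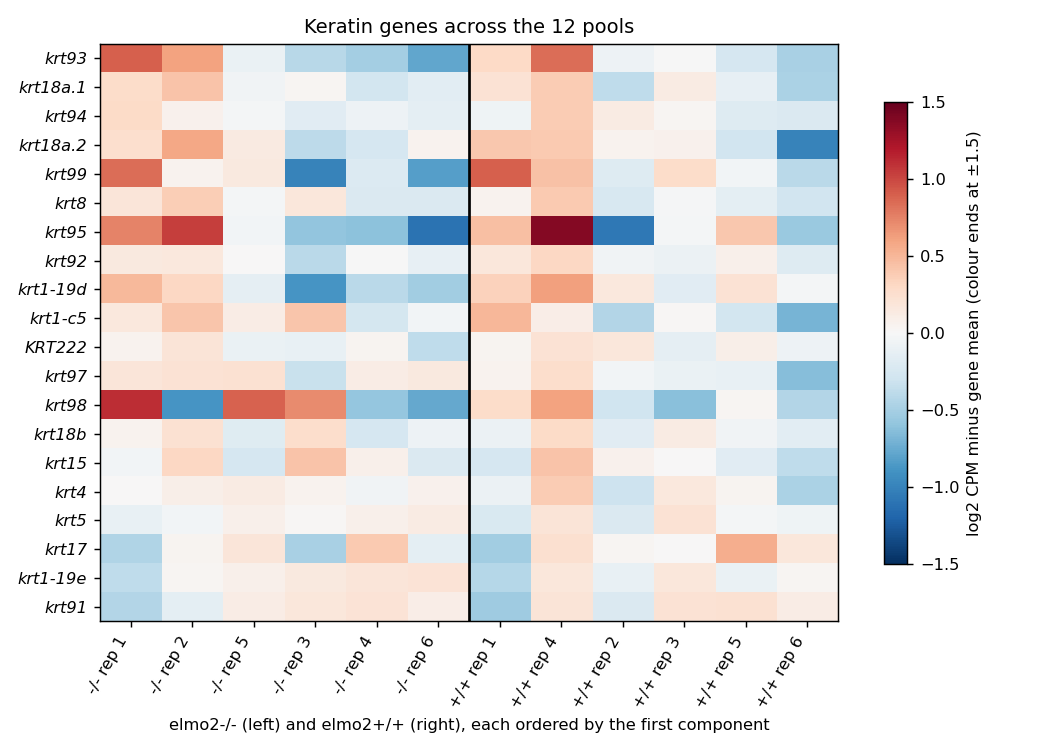
Log2 CPM of each keratin gene minus its mean over the 12 pools, with elmo2-/- pools on the left and elmo2+/+ pools on the right, each ordered from low to high first component. Most rows are red in the first pools of both genotypes, and krt17, krt1-19e and krt91, in the bottom rows, are blue in both replicate 1 pools.

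Near-identical copies can share reads, which the estimation of counts then divides between them. A gene whose reads all map to it alone gets whole estimated counts, within a tolerance of 0.001. This was so in all 12 pools for 9 of 20 keratin genes (krt4, krt15, krt1-19d, krt94, krt18a.2, krt93, krt1-c5, krt99 and krt95), against 49.8% of all genes tested. krt5, krt17, krt92, krt8, krt97 and krt18b were whole in 0 of 12 pools, krt91 and krt1-19e in 1, krt18a.1 and KRT222 in 3 and krt98 in 11. The levels of these 11 genes are therefore uncertain to the extent that reads were divided.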

How the data were processed

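RNA of 12 pools of 30 whole larvae was sequenced on a BGISEQ-500, 6 pools per genotype. The authors deposited estimated counts per gene without scaling, and TPM, which corrects for transcript length and sums to the same total in every pool. The submitters' processing notes name Trim Galore 0.6.4, kallisto 0.4.6 and the build GRCz11; the role and settings of each are not given in the sources used here. Genes are listed by Ensembl identifier, of which 29201 of 32520 had a symbol in the table used, some of them human-style names, so that a listed gene can be missed. All 20 keratin genes were found in the RefSeq table of assembly GRCz12tu.

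Estimated counts were rounded and tested with edgeR 4.0.16 in R 4.3.3 (filterByExpr with a minimum count of 10, TMM, quasi-likelihood test, genotype as the only term, Benjamini-Hochberg over 22259 genes). Standard errors are the absolute log2 fold change over the square root of F. CPM values used TMM-scaled totals, and log2 CPM a prior count of 2. Libraries held 20116203 to 20939679 estimated counts. The biological coefficient of variation was 0.171. Nothing states that the pools came from separate clutches, so p-values measure the spread between pools. Permutation tests used numpy 2.4.6. In simulated data with 22099 genes tested for this comparison, edgeR recovered 88.3% of 94 genes changed by a log2 fold change of 1. It recovered 100% of 106 genes changed by 2, and called 5 unchanged genes. In the larval data, elmo2 at a log2 fold change of -0.93 had an adjusted p of 0.642 in edgeR, and 0 of 22259 genes passed. Whether these percentages hold for the larval data, or for keratin genes with few counts, was not tested.

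The members and gene lists were chosen with earlier results of these data known. Genes named were elmo2, the 10 keratin genes with the highest mean TPM, the 6 with the smallest p, the 4 with the largest fold change, the 4 with the largest SD of log2 CPM at a mean of at least 1 CPM, and up to 3 genes per list with the smallest p. The others were added so that each member has a value. Protein identity between members was not analysed here. Of lists not described above, the median log2 fold change was 0.106 for 3 skeletal muscle genes, -0.275 for 3 lens genes (cryba1b at -0.30, unadjusted p of 0.0392 in edgeR), 0.021 for 3 enterocyte genes, 0.066 for 4 hepatocyte genes, -0.041 for 3 neuronal genes, -0.082 for 6 ionocyte genes, 0.007 for 1 mucous cell gene and 0.081 for 1 notochord gene. Alternatives were DESeq2 1.42.0, limma 3.58.1 on log2 TPM with a pseudocount of 1 or 0.1, scaling by RLE or by library size alone, a filter of 1 CPM in 6 pools or of any count, the replicate block, leaving out each pool, and elmo2-/- pools of library numbers 13 to 16 or of 7 and 8 only. Replicates 1 to 4 or 5 and 6 of both genotypes, the first component as a covariate, and the relation to that component were chosen after seeing the data.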

Additional observations from a re-analysis of the deposited data

Results flagged for a closer look

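In 44 groups of 6 pools, the genotypes taken separately for elmo2, the keratin share and each keratin gene, 2 values stood apart from the other 5 of their group by Dixon's test, where chance gives about 1 in 20. krt1-19e, the gene whose promoter marks basal keratinocytes, was at 1694 CPM in elmo2-/- replicate 1, and the other 5 elmo2-/- pools lay between 2247 and 2528 CPM. The elmo2+/+ replicate 1 pool was also the lowest of its genotype for this gene. krt97 was at 263 CPM in elmo2-/- replicate 3, and the other 5 elmo2-/- pools lay between 358 and 389 CPM.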

How the results depend on the processing

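No keratin gene had an adjusted p under 0.05 in any of 25 alternatives, and the smallest adjusted p was 0.337. The median log2 fold change of the keratin genes lay between -0.021 and 0.144 when each pool was left out, and the difference in keratin share between -0.0322 and 0.0321 percentage points of TPM. Over all genes, DESeq2 called 3, limma 1 at either pseudocount, replicates 5 and 6 alone 2, and the fit with the first component as a covariate 2. elmo2 passed in DESeq2 (-0.93), in limma (-1.17 on log2(TPM + 1), -1.19 on log2(TPM + 0.1)) and with that covariate (-0.93), and lay between -1.01 and -0.86 when each pool was left out.

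At an unadjusted p under 0.05, elmo2-/- library numbers 7 and 8 gave 2 of 20 keratin genes (krt1-19d at -0.53 and KRT222 at -0.29; 6.53% of all genes), replicates 5 and 6 gave 4 (krt97 at 0.54, krt18a.2 at 0.69, krt1-c5 at 0.51 and krt1-19d at -0.41; 11.4% of all genes), the covariate gave 1 (krt1-19d at -0.36; 9.13% of all genes), and leaving out each pool gave 0 to 1. The labels do not say whether pools with the same replicate number belong together. The correlations of same-numbered deviations ran from -0.252 (replicate 4) to 0.619 (replicate 1), which does not settle it. With the replicate block, 1 keratin gene passed unadjusted (krt1-19d at -0.38, p of 0.0281, adjusted 0.753 in edgeR), 1445 of all genes did against 1041 without it, 0 had an adjusted p under 0.05, the median was 0.029, elmo2 stood at -0.93, krt91 at 0.0022, and 4 of 6 same-numbered differences in keratin share were positive (mean -0.000359).

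Signs turned in some settings, many of them near 0 but not all. Without elmo2+/+ replicate 4, krt95 was at 0.17, against -0.18 with all pools. Limma gave krt5 -4.6e-05 and krt18b -0.03 on log2(TPM + 1), and -4.4e-05 and -0.031 on log2(TPM + 0.1). Library numbers 13 to 16 gave krt5 -0.0044, krt94 0.017, krt93 0.16 and krt95 0.043. Library numbers 7 and 8 gave krt91 0.082, krt8 -0.10, krt15 -0.21, krt18a.1 -0.097 and krt18b -0.13. They also gave krt95 -0.77, krt93 -0.51 and krt99 -0.48, against -0.18, -0.029 and -0.26 with all pools. In the other direction, krt97 was at 0.26 and krt1-19e at 0.17, against 0.17 and 0.084. The keratin median in that setting was -0.099, against 0.026 with all pools. Replicates 1 to 4 gave krt4 -0.037, krt91 0.021, krt5 -0.027 and krt18a.2 -0.14, and replicates 5 and 6 gave krt18b -0.025 and krt94 0.12. Leaving out each pool gave -0.0063 to 0.16 for krt4, -0.097 to 0.069 for krt91, -0.0055 to 0.082 for krt5, -0.015 to 0.16 for krt18a.1, -0.037 to 0.081 for krt18b, -0.091 to 0.055 for krt94, -0.051 to 0.18 for krt18a.2, -0.27 to 0.17 for krt93 and -0.46 to 0.17 for krt95, and 0.0071 to 0.17 for krt8 and 0.016 to 0.21 for krt15, which did not turn there. Genes that kept their sign throughout still ranged when each pool was left out: 0.083 to 0.25 for krt97, 0.13 to 0.38 for krt1-c5, -0.27 to -0.053 for krt17, -0.12 to -0.0085 for krt92, -0.52 to -0.073 for krt99, 0.094 to 0.48 for krt98, -0.14 to -0.036 for KRT222, 0.016 to 0.16 for krt1-19e and -0.48 to -0.21 for krt1-19d. Why values differ between settings was not tested. Relations to the first component passed for 12 keratin genes on log2(TPM + 1), 8 by rho and 4 without the 2 farthest pools, against 9. For log2(TPM + 1) and rho the share of all genes passing is not given here. krt95 and krt98 gave no value at 1 CPM in 6 samples as the filter, and their low counts leave the widest intervals.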
